A study of Homo sapiens with 8 samples.

Results

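The insulin-like growth factor axis was followed here through 10 genes in 2 Ewing sarcoma cell lines, RD-ES and SK-N-MC. They are the ligands IGF1 and IGF2, the receptor IGF1R, the binding proteins IGFBP2, IGFBP3, IGFBP4, IGFBP5 and IGFBP6, and the receptor substrates IRS1 and IRS2. They were taken by symbol from a matrix of 60332 genes, in which each symbol had 1 row. RNA was sequenced from 4 groups with 2 libraries each, RD-ES control, RD-ES eKD2, SK-N-MC control and SK-N-MC eKD2, 8 libraries in all. The eKD2 cells expressed dCas9-KRAB, in which a nuclease-dead Cas9 is joined to the KRAB repressor domain, and a guide RNA placed beside the GGAA microsatellite enhancer of LOXHD1. The labels describe the controls as cells that received an empty dCas9-KRAB lentivirus, whereas the text of the study calls them parental. Virus was used at a multiplicity of infection of 10, cells were selected in puromycin at 1 µg/ml for 3 days and kept to 5 passages at most, and the infected cells were pools rather than single clones. Both lines come from Ewing sarcoma and each is a single line, so a difference between them is one between 2 cell lines and not between tumour types.

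In this axis, the ligands bind IGF1R, a tyrosine kinase at the cell surface, which phosphorylates the docking proteins IRS1 and IRS2 and through them signals to the PI3K, AKT and mTOR arm and, through SHC and GRB2 adaptors, to the RAS arm. The secreted binding proteins hold the ligands outside the cell, and proteases such as PAPPA cut them and set the ligands free. In Ewing sarcoma the axis is a long-studied dependency, and IGFBP3 is a well-known gene repressed by the EWSR1::FLI1 fusion, a factor that binds GGAA repeats. Neither the fusion nor any protein was measured here.

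Levels are FPKM, a read number scaled by transcript length and library size, so that levels of different genes can be set side by side. Comparison between libraries depends on the scaling. For eKD2 against control in RD-ES, limma gave 1288 genes higher and 575 lower at an unadjusted p under 0.05. With each library scaled to a common median, these numbers were 824 and 1175. In bulk RNA a smaller share of expressing cells and less RNA per cell cannot be told apart. Log2 fold changes are on the log2(FPKM + 1) scale with their SE from limma. Folds printed beside them are ratios of group mean FPKM without the added 1, so the 2 can differ. The fit covered the 15175 genes whose mean reached 1 FPKM, and adjusted p-values are Benjamini-Hochberg values over those genes. Of the 10 genes, 8 passed that filter, and IGF2 and IGFBP3 did not. The gene whose enhancer was targeted, LOXHD1, was low in the eKD2 libraries of both lines. It stood at 21.4 and 21.2 FPKM in RD-ES control and 1.04 and 1.02 FPKM in RD-ES eKD2, and at 159 and 169 FPKM in SK-N-MC control, then 11.0 and 12.0 FPKM for SK-N-MC eKD2. All 8 markers of Ewing sarcoma that were looked at, among them CD99, NKX2-2 and FLI1, were above 1 FPKM in every library. Estimated depth ran from 7.41 to 30.2 M reads (M, mega), lowest in RD-ES eKD2 replicate 1. That library also held 3.50 FPKM of CDH1 and 8.24 FPKM of KRT8, both epithelial genes, against 0.037 and 1.38 FPKM in the other RD-ES eKD2 library, and the summed level of the 4 epithelial markers was 53.3 FPKM there against 38.6 to 45.2 FPKM in the other RD-ES libraries and 40.1 to 60.5 FPKM in SK-N-MC. PTPRC, a leukocyte gene, was at 19.2 to 22.6 FPKM in the SK-N-MC libraries, while CD3E was listed at 0 and LYZ stayed under 1 FPKM in all of them. Summed, the 4 leukocyte markers came to 0.379 to 0.871 FPKM in RD-ES and 19.8 to 22.9 FPKM in SK-N-MC, and the 5 fibroblast or mesenchymal markers to 60.2 to 81.9 FPKM in RD-ES and 193 to 216 FPKM in SK-N-MC. The latter list was mixed, since PDGFRB stood at 8.11 to 18.01 FPKM in RD-ES and 1.68 to 7.45 FPKM in SK-N-MC, and PDGFRA at 0.475 to 1.19 and 0.050 to 0.415 FPKM, both lower in SK-N-MC. The 2 endothelial markers found, CDH5 and VWF, were under 1 FPKM throughout. The part of these markers in the results was not tested.

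Promoter sequences of the axis were read to show what lies before the RefSeq starts of the genes on which the results turn. These are IGFBP3, which the fusion is known to repress, IGF1, IGFBP5 and IRS2, with the widest gaps between the lines, and IGF1R. Each is the 250 bases before the RefSeq start (table build GRCh38.p14), written along the gene's strand and placed on GRCh37 by its only exact match there. Capitals mark GGAA, or TTCC where GGAA lies on the other strand.
IGFBP3: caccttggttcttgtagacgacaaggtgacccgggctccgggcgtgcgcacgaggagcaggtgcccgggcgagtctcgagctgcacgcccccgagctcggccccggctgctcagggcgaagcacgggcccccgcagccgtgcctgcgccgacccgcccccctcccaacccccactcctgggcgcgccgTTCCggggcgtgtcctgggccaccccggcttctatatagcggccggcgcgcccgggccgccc
IGF1: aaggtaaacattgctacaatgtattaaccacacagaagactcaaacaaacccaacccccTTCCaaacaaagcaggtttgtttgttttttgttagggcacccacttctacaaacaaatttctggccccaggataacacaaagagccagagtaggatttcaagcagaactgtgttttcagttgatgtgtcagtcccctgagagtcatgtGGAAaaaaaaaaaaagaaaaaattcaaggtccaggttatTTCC
IGFBP5: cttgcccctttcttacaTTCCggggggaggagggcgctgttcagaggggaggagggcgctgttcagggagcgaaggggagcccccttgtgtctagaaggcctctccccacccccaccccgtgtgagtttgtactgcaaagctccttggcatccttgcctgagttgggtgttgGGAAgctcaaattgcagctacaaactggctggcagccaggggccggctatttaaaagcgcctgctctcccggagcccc
IRS2: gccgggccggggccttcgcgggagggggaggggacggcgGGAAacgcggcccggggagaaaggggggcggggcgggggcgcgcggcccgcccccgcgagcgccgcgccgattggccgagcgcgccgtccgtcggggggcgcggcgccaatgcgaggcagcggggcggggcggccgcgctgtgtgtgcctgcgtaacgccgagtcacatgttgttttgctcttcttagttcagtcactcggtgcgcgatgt
IGF1R: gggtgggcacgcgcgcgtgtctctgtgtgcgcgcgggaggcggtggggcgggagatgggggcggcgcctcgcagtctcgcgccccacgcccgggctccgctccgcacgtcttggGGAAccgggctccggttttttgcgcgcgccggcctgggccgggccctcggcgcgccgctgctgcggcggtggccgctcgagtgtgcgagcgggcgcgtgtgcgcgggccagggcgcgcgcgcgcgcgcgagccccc
The IGFBP3 window is at chr7:45960872-45961121 on the minus strand, inside the span of that gene in GENCODE, whose outermost start lies further upstream, but over no annotated exon. The IGF1 window is at chr12:102875526-102875775 on the minus strand and the IGFBP5 window at chr2:217560273-217560522 on the minus strand, where it overlaps an exon of the noncoding gene DIRC3-AS1. The IRS2 window is at chr13:110438931-110439180 on the minus strand and the IGF1R window at chr15:99191518-99191767 on the plus strand. Counted on both strands in the windows shown, GGAA occurred 3 times before IGF1, 2 times before IGFBP5, and 1 time each before IGFBP3, IRS2 and IGF1R. A further IGF1 window, at chr12:102872329-102872578 and not shown, held GGAA 2 times and overlaps an annotated exon of IGF1. Of all 35116 promoter windows of this length, 92.7% held GGAA on either strand, with a median of 3. The tandem GGAAGGAA, which contains GGAA, was in none of the 12 windows that 9 of the 10 genes have, and in 3.06% of all windows. The most GGAA in any of the 12 was 7, before IGFBP6, in a window that overlaps an annotated exon of that gene. IGF2 has no window in the table.

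IGF1, the ligand made by many tissues and the one detected here well above the filter, lies at chr12:102789652-102875522 on the minus strand of GRCh37. It stood at 5.10 and 5.18 FPKM in RD-ES control, 5.58 and 3.81 FPKM in RD-ES eKD2, 67.9 and 59.7 FPKM in SK-N-MC control, then 50.3 and 55.8 FPKM for SK-N-MC eKD2. Every SK-N-MC library was above every RD-ES library, and within RD-ES the control and eKD2 libraries overlapped. In control cells IGF1 was 12.4-fold higher in SK-N-MC (log2 fold change 3.40 ± 0.16 SE, adjusted p = 2.8e-05, limma), and in eKD2 cells 11.3-fold (3.26 ± 0.16, adjusted p = 3.3e-05). The eKD2 libraries of SK-N-MC both lay below the controls, with a log2 fold change of -0.26 ± 0.16 that did not pass the test (adjusted p = 0.55). In RD-ES the log2 fold change was -0.13 ± 0.16 (adjusted p = 0.80), and it depended on 1 library, since it became 0.10 without eKD2 replicate 2. HELLPAR and LINC02456 overlap the span of IGF1, and its deposited locus covers 360462 bases against 85871 for the gene in GENCODE. The part of overlapping genes in these values was not tested.

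IGF2, the fetal ligand, was close to undetected. Its values were 0.018 and 0.038 FPKM in RD-ES control, 0.092 and 0.190 FPKM in RD-ES eKD2, 0.091 and 0.064 FPKM in SK-N-MC control, then 0.058 and 5.6e-07 FPKM for SK-N-MC eKD2. These correspond to an estimated 0 to 15 reads a library, and the level that 3 reads would give ran from 0.018 to 0.075 FPKM. IGF2 at chr11:2150342-2179621 shares its span with INS-IGF2, the antisense gene IGF2-AS and MIR483, and the library kit does not keep strand, so the few reads could not be assigned to IGF2 with certainty. No change was therefore read from it.

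**Figure D1:**
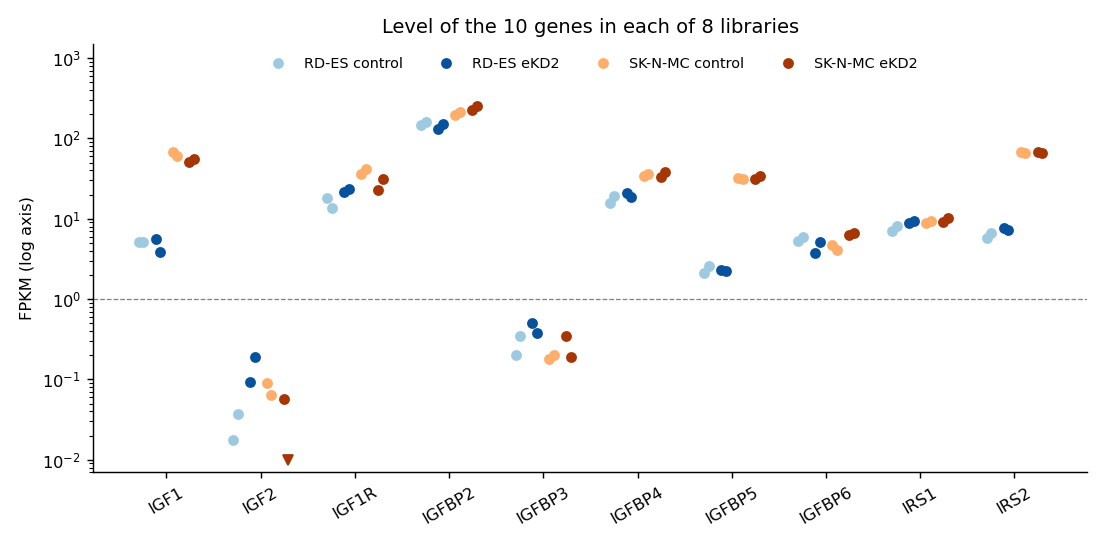
Level of each gene in FPKM on a log axis, 1 point per library, in the 4 groups of 2 libraries, with the filter of 1 FPKM as a dashed line. The triangle marks IGF2 in SK-N-MC eKD2 replicate 2, drawn at the lower limit of 0.01 FPKM although its value was 5.6e-07. IGF1, IGFBP5 and IRS2 form separate bands for the 2 lines, whereas IGFBP3 and IGF2 lie below 1 FPKM in all 8 libraries.

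IGF1R, the receptor for both ligands, lies at chr15:99191768-99507759 on the plus strand. It stood at 18.1 and 13.7 FPKM in RD-ES control and 21.5 and 23.2 FPKM in RD-ES eKD2. In SK-N-MC it stood at 36.2 and 41.5 FPKM in the controls and 22.5 and 31.5 FPKM in eKD2. Both eKD2 libraries were thus above both controls in RD-ES and below both in SK-N-MC. Between 1915 and 13165 estimated reads per library lay behind these values. In RD-ES the log2 fold change was 0.48 ± 0.19 (95% interval 0.0045 to 0.95, unadjusted p = 0.048, adjusted p = 0.40, limma), and in SK-N-MC it was -0.52 ± 0.19 (-0.997 to -0.051, unadjusted p = 0.035, adjusted p = 0.34). Neither passed the test. The difference of the eKD2 change between the lines was -1.001 ± 0.27 (unadjusted p = 0.010, adjusted p = 0.24) and did not pass either. With each library left out in turn, that difference ran from -1.24 to -0.77. In control cells IGF1R was 2.45-fold higher in SK-N-MC (1.25 ± 0.19, adjusted p = 0.0023), whereas in eKD2 cells the gap of 0.25 ± 0.19 did not pass the test (adjusted p = 0.32). Some unnamed and antisense genes, SYNM-AS1 among them, overlap IGF1R and could not be told apart without strand. Its deposited locus covers 483600 bases against 315992 for the gene in GENCODE.

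IGFBP3 lies at chr7:45951844-45961473 on the minus strand and was listed at 0.201 and 0.351 FPKM in RD-ES control and 0.501 and 0.383 FPKM in RD-ES eKD2. In SK-N-MC it was at 0.178 and 0.204 FPKM in the controls and 0.343 and 0.188 FPKM in eKD2. It was low in both lines and in all groups, with an estimated 6 to 20 reads a library. That estimate assumes that all signal lay on the canonical transcript in GENCODE, where the gene has 9 transcripts. The groups did not overlap in RD-ES and overlapped in SK-N-MC. Summed over the libraries of a group, 22 estimated reads in RD-ES eKD2 stood against 20 in RD-ES control, a depth-corrected ratio of 1.48 (exact 95% counting interval 0.772 to 2.86), and 31 in SK-N-MC eKD2 against 20 in SK-N-MC control, a ratio of 1.38 (0.762 to 2.56). These intervals cover counting error only and include 1, so a change of IGFBP3 was not detectable at this depth in either line. An increase above 2.86-fold in RD-ES or 2.56-fold in SK-N-MC lay outside them. Without the filter on low values, limma gave an adjusted p of 0.70 for RD-ES and 0.88 for SK-N-MC. Over the 8 libraries, the tested gene most like it was RBFADN (Pearson r = 0.96), followed by SNORA11, LMTK2, HEATR6 and FAM86C1 (r = 0.94 for the last). At so few reads this likeness is a description only.

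Among the binding proteins IGFBP2 was by far the most abundant. It stood at 147 and 160 FPKM in RD-ES control, 130 and 150 FPKM in RD-ES eKD2, 197 and 216 FPKM in SK-N-MC control, then 226 and 251 FPKM for SK-N-MC eKD2. That put it above 94.1% to 97.1% of the tested genes by group mean. SK-N-MC was higher in every library, by 1.35-fold in control cells (0.43 ± 0.10, adjusted p = 0.013) and 1.70-fold in eKD2 cells (0.77 ± 0.10, adjusted p = 0.0012). The first call was lost without RD-ES control replicate 1 (0.36, adjusted p = 0.071) or SK-N-MC control replicate 2 (0.36, adjusted p = 0.076). The eKD2 changes of -0.13 ± 0.10 for RD-ES and 0.21 ± 0.10 for SK-N-MC did not pass the test (adjusted p = 0.63 and 0.46).

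IGFBP5, which also binds bone matrix, lies beside IGFBP2 on chromosome 2, at 217536828-217560272. It stood at 2.14 and 2.58 FPKM in RD-ES control, 2.27 and 2.26 FPKM in RD-ES eKD2, 32.3 and 31.1 FPKM in SK-N-MC control, then 31.4 and 33.8 FPKM for SK-N-MC eKD2. The 2 lines were far apart and the treatment groups within a line were close. The gap was 13.4-fold in control cells (3.29 ± 0.10, adjusted p = 6.6e-06) and 14.4-fold in eKD2 cells (3.36 ± 0.10, adjusted p = 6.6e-06). The eKD2 changes were -0.038 ± 0.097 in RD-ES (95% interval -0.28 to 0.20) and 0.039 ± 0.097 in SK-N-MC (-0.20 to 0.28), with adjusted p = 0.92 and 0.93, and the first became 0.057 without RD-ES control replicate 2. DIRC3-AS1 overlaps the span of IGFBP5, whose deposited locus covers 321976 bases against 23445 for the gene in GENCODE. Its part in the IGFBP5 values was not tested.

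IGFBP4 was the next binding protein in RD-ES, at 15.9 and 18.96 FPKM in the controls and 20.7 and 18.9 FPKM in eKD2, and stood at 33.8 and 36.5 FPKM in SK-N-MC control, then 33.6 and 37.9 FPKM for SK-N-MC eKD2. It was 2.02-fold higher in SK-N-MC control than in RD-ES control (0.98 ± 0.12, adjusted p = 7.7e-04) and 1.80-fold in eKD2 cells (0.82 ± 0.12, adjusted p = 0.0016). By eKD2 it differed by 0.18 ± 0.12 in RD-ES (adjusted p = 0.57) and by 0.021 ± 0.12 in SK-N-MC cells (adjusted p = 0.98), neither past the test. IGFBP6, a binding protein with a preference for IGF2, stood at 5.25 and 5.89 FPKM in RD-ES control, 3.73 and 5.13 FPKM in RD-ES eKD2, 4.75 and 4.05 FPKM in SK-N-MC control, then 6.32 and 6.66 FPKM for SK-N-MC eKD2. Its eKD2 libraries were below the controls in RD-ES and above them in SK-N-MC, the opposite of IGF1R. The log2 fold change came to -0.29 ± 0.16 in RD-ES (adjusted p = 0.52) and 0.48 ± 0.16 in SK-N-MC (unadjusted p = 0.022, adjusted p = 0.30), and the difference between the lines was 0.76 ± 0.22 (unadjusted p = 0.013, adjusted p = 0.25). None passed the test. The lowest IGFBP6 value came from 21 estimated reads (95% counting interval 13.0 to 32.1) in RD-ES eKD2 replicate 1, and without that library the RD-ES change was -0.098.

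Between the lines IGFBP6 did not pass the test in control cells (-0.28 ± 0.16, adjusted p = 0.16), and in eKD2 cells it was higher in SK-N-MC by 0.48 ± 0.16 (adjusted p = 0.041). The second call was close to the threshold. It was lost under 12 of the alternatives, among them median scaling (adjusted p = 0.055) and the removal of RD-ES eKD2 replicate 1 (0.29, adjusted p = 0.15), and the adjusted p ranged from 0.017 to 0.16.

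**Figure D2:**
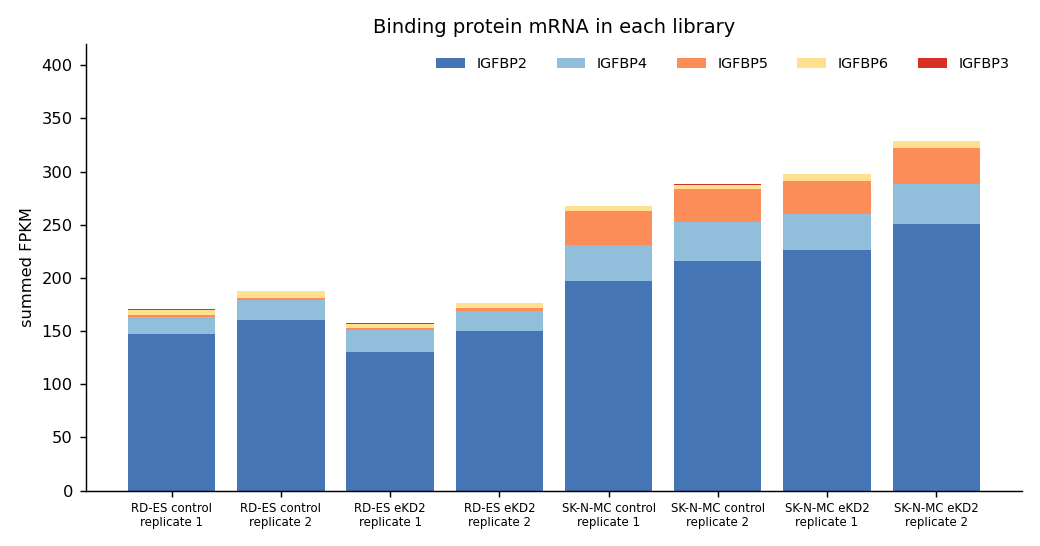
Summed FPKM of the 5 binding protein genes in each of the 8 libraries, stacked by gene. IGFBP2 is the largest segment throughout, the IGFBP5 segment is thin in RD-ES and wide in SK-N-MC, and IGFBP3 is too low to form a visible band.

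Added up, mRNA of the 5 binding proteins came to 157 to 188 FPKM in the RD-ES libraries and 268 to 329 FPKM in the SK-N-MC libraries. IGFBP2 made up 82.7% to 86.2% of it in RD-ES and 73.5% to 76.1% in SK-N-MC. IGFBP5 made up 1.26% to 1.44% in RD-ES and 10.3% to 12.0% in SK-N-MC, and IGFBP3 at most 0.319% in any library. The ranges of these shares of IGFBP2 and IGFBP5 did not overlap between the lines.

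IRS1 and IRS2, the docking proteins that carry the signal from the receptor, differed in their pattern. IRS1 stood at 7.003 and 8.21 FPKM in RD-ES control, 8.93 and 9.47 FPKM in RD-ES eKD2, 8.78 and 9.35 FPKM in SK-N-MC control, then 9.03 and 10.1 FPKM for SK-N-MC eKD2. IRS2 stood at 5.80 and 6.62 FPKM in RD-ES control, 7.66 and 7.31 FPKM in RD-ES eKD2, 67.1 and 66.1 FPKM in SK-N-MC control, then 67.9 and 65.0 FPKM for SK-N-MC eKD2. IRS1 was near the same level in all groups, and IRS2 split the lines. IRS2 was 10.7-fold higher in SK-N-MC control cells (3.23 ± 0.083, adjusted p = 5.2e-06) and 8.88-fold in eKD2 cells (2.99 ± 0.083, adjusted p = 6.3e-06). An unnamed gene overlaps the span of IRS2, and its part in these values was not tested. For IRS1 the gaps were 0.23 ± 0.11 (95% interval -0.036 to 0.49, adjusted p = 0.12) and 0.050 ± 0.11 (-0.22 to 0.31, adjusted p = 0.72), and the second turned to -0.0090 under median scaling.

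In RD-ES both substrates were higher in both eKD2 libraries than in both controls. The log2 fold changes were 0.24 ± 0.083 for IRS2 (unadjusted p = 0.029, adjusted p = 0.35) and 0.25 ± 0.11 for IRS1 (adjusted p = 0.43), neither past the test. In SK-N-MC the control and eKD2 libraries of both genes overlapped, with changes of -0.0032 ± 0.083 for IRS2 and 0.069 ± 0.11 for IRS1 (adjusted p = 1.0 and 0.86).

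Across the axis, eKD2 against control was called by limma in 0 of 8 tested genes in RD-ES, where 0.343% of all tested genes were called (52 genes), and in 0 of 8 in SK-N-MC, where 0.323% were called (49 genes). At an unadjusted p under 0.05 there were 2 of 8 in RD-ES, IGF1R and IRS2, both higher, against 12.3% of all tested genes in either direction. That background was 1288 genes higher and 575 lower, and 824 and 1175 under median scaling. There were 2 of 8 in SK-N-MC, IGFBP6 higher and IGF1R lower, against 13.0%. Control and eKD2 libraries did not overlap for 4 of 8 genes in RD-ES (IGF1R, IGFBP6, IRS1 and IRS2), as for 39.3% of all tested genes. In SK-N-MC they did not overlap for 4 of 8 (IGF1, IGF1R, IGFBP2 and IGFBP6), as for 47.3%. The median log2 fold change of the 8 genes was 0.071 in RD-ES, beside 0.031 over all tested genes, and 0.030 in SK-N-MC, beside -0.0049. For the difference between the lines, 0 of 8 passed, with 0.244% of all tested genes called (37 genes), and 2 of 8 had an unadjusted p under 0.05, IGF1R and IGFBP6, against 13.5%. With 2 libraries a group, the smallest two-sided p of an exact permutation test is 0.333, so calls rest on the spread shared across groups and genes.

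**Figure D3:**
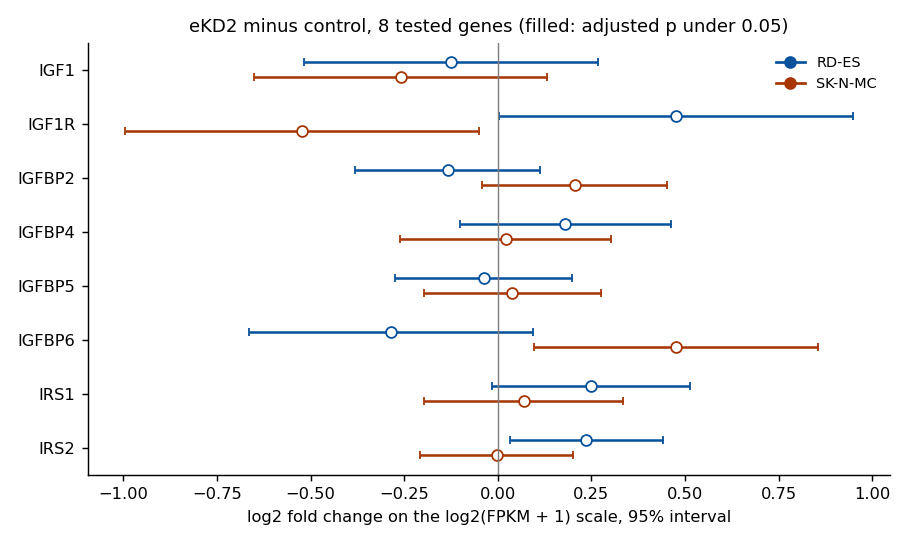
Log2 fold change of eKD2 against control on the log2(FPKM + 1) scale with its 95% interval from limma, for the 8 tested genes in RD-ES and SK-N-MC, 2 libraries a group. All points are open, as no adjusted p is under 0.05, and the intervals of IGF1R lie on opposite sides of 0 in the 2 lines.

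The 2 lines differed in more of these genes than control and eKD2 cells did. In control cells 6 of 8 genes passed the test, all higher in SK-N-MC, where 57.8% of all tested genes were called, 31.4% higher and 26.4% lower in SK-N-MC. These were IGF1, IGFBP5, IRS2, IGF1R, IGFBP4 and IGFBP2. In eKD2 cells 6 of 8 passed, again all higher in SK-N-MC, against 56.3% called and 28.2% called higher among all tested genes. Here IGFBP6 entered and IGF1R left the called genes. The median gap of the 8 genes was 1.11 in control and 0.79 in eKD2 cells, beside 0.065 and 0.011 over all tested genes. Median scaling moved the median of all genes in control cells to -0.042, a shift over 0.1, and left the 6 genes called there.

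**Figure D4:**
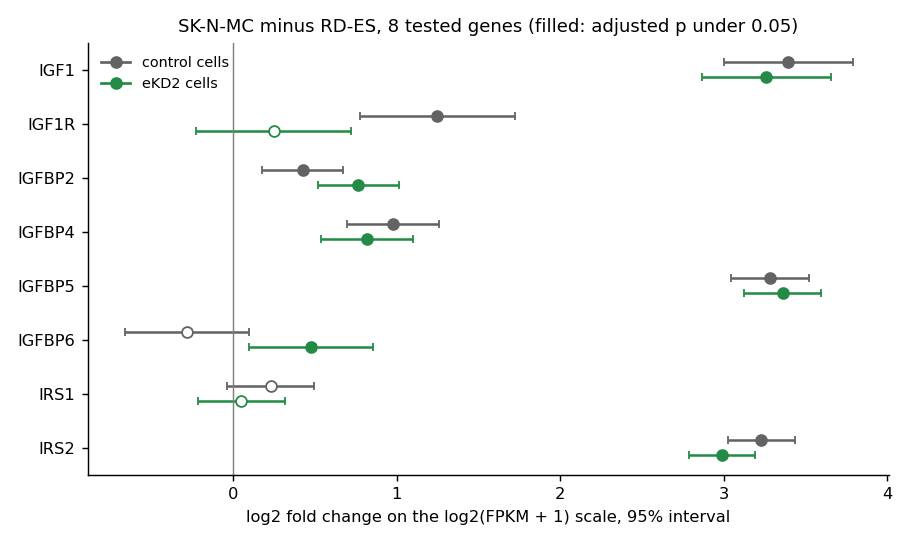
Log2 fold change of SK-N-MC against RD-ES on the log2(FPKM + 1) scale with its 95% interval from limma, for the 8 tested genes in control and in eKD2 cells. Filled points have an adjusted p under 0.05. IGF1, IGFBP5 and IRS2 lie near 3 in both, and IGF1R is filled at 1.25 in control cells and open at 0.25 in eKD2 cells.

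The order of levels reflected these gaps. In RD-ES control IGFBP2 led, followed by IGFBP4, IGF1R, IRS1, IRS2, IGFBP6, IGF1, IGFBP5, IGFBP3 and IGF2, and the libraries of IGFBP4 and IGF1R, and of IRS2 and IGFBP6, overlapped. In RD-ES eKD2 IGF1R came before IGFBP4 and IGF1 before IGFBP6, and only IGF1 and IGFBP6 overlapped among neighbours. In SK-N-MC control the order was IGFBP2, IRS2, IGF1, IGF1R, IGFBP4, IGFBP5, IRS1, IGFBP6, IGFBP3 and IGF2, with overlap between IRS2 and IGF1 and between IGF1R and IGFBP4. In SK-N-MC eKD2 IGF1R came after IGFBP4 and IGFBP5, and the libraries of IGFBP4 and IGFBP5, and of IGFBP5 and IGF1R, overlapped. In the ratio of ligand to receptor mRNA, IGF1 was 0.165 to 0.378 of IGF1R in the RD-ES libraries and 1.44 to 2.23 of it in the SK-N-MC libraries.

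Further receptors and carriers of the family were mostly silent. Of 13 such genes 4 were tested, and IGFBP1, IGFALS, INS and IGFL1 to IGFL4 were listed at 0 in all libraries. INSR, the insulin receptor, was at 2.92 to 5.81 FPKM in RD-ES and 11.9 to 12.6 FPKM in SK-N-MC and passed between the lines in control cells (1.35 ± 0.26, adjusted p = 0.0051). IGFBPL1, a protein related to the binding proteins, went the other way, at 1.38 to 2.69 FPKM in RD-ES and 0.037 to 0.237 FPKM in SK-N-MC (-1.40 ± 0.24, adjusted p = 0.0032). IGF2R, which clears IGF2, was at 40.1 to 54.7 FPKM in the 8 libraries, with a gap of 0.21 ± 0.12 between the lines in control cells (adjusted p = 0.20). By eKD2 0 of the 4 passed in either line, and 0 had an unadjusted p under 0.05, with a median of 0.24 for RD-ES and 0.047 for SK-N-MC.

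Among 9 proteases of the binding proteins and their inhibitors, 5 were tested and 4 of them were higher in SK-N-MC than in RD-ES in control cells, against 31.4% of all tested genes. PAPPA, the protease that cuts IGFBP4 and IGFBP5, stood at 7.35 to 8.95 FPKM in RD-ES and 39.3 to 53.5 FPKM in SK-N-MC (2.19 ± 0.16 in control cells, adjusted p = 1.2e-04). Its inhibitor STC2 stood at 2.26 and 2.25 FPKM in RD-ES control, 9.69 and 14.6 FPKM in RD-ES eKD2, 65.4 and 72.1 FPKM in SK-N-MC control, then 51.5 and 59.3 FPKM for SK-N-MC eKD2. STC2 was thus higher in both RD-ES eKD2 libraries and lower in both SK-N-MC eKD2 libraries. In RD-ES it rose by 1.99 ± 0.18 (5.39-fold, adjusted p = 0.017), in SK-N-MC the change was -0.31 ± 0.18 (adjusted p = 0.53), and the difference between the lines was -2.30 ± 0.26 (adjusted p = 0.046, from 0.0086 to 0.22 over 16 alternatives, of which 9 ended the call, among them any library left out except those of RD-ES eKD2). The RD-ES call was lost under 8 of 17 alternatives, among them leaving out RD-ES control replicate 1 or 2 or any 1 SK-N-MC library and fitting the RD-ES groups alone, with adjusted p from 0.0049 to 0.46 over the alternatives. The log2 fold change over the alternatives was from 1.72 to 2.35. The median of the 5 genes was 0.064 for RD-ES and 0.099 for SK-N-MC.

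Of 8 RNA regulators of IGF2 mRNA, 5 were tested, and 0 passed by eKD2 in either line. IGF2BP3, an mRNA-binding protein, stood at 59.9 and 55.2 FPKM in RD-ES control and 92.6 and 72.8 FPKM in RD-ES eKD2 (0.51 ± 0.12, unadjusted p = 0.0065, adjusted p = 0.23). IGF2BP1 stood at 101 and 107 FPKM in SK-N-MC control, then 70.7 and 85.2 FPKM for SK-N-MC eKD2 (-0.42 ± 0.15, unadjusted p = 0.029, adjusted p = 0.32). At an unadjusted p under 0.05 there were 2 higher in RD-ES, against 12.3% of all tested genes in either direction, and 1 lower in SK-N-MC, against 13.0%. Those shares were 1288 genes higher and 575 lower in RD-ES, and 867 and 1106 in SK-N-MC. The median of the 5 was 0.12 for RD-ES and -0.16 for SK-N-MC. Between the lines in control cells IGF2BP2 was higher and LIN28B and DIS3L2 were lower in SK-N-MC, and the rest did not pass. Among all tested genes 31.4% were called higher and 26.4% lower there.

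Downstream, 23 of 27 adaptors and RAS genes and 31 of 33 genes of the PI3K, AKT and mTOR arm were tested, and 0 of either passed by eKD2 in either line. The medians were -0.011 for RD-ES and 0.0096 for SK-N-MC in the adaptors and RAS genes, and 0.027 and -0.0048 in the PI3K arm. At an unadjusted p under 0.05 (limma), all tested genes stood at 1288 higher and 575 lower in RD-ES (12.3%), and 867 and 1106 in SK-N-MC (13.0%). Of the 23 adaptors and RAS genes, 0 were higher and 2 lower (SHC1 and SOS1) in SK-N-MC. In RD-ES 4 of the 23 were higher and 0 lower. GRB14, an adaptor that restrains the insulin receptor, had the lowest p of those in RD-ES, with 2.49 and 2.20 FPKM in the controls and 4.56 and 4.81 FPKM in eKD2 (0.77 ± 0.11, adjusted p = 0.098). In the PI3K arm 2 genes were higher at that level in RD-ES, while in SK-N-MC 1 was higher and 3 were lower. PIK3R1, a regulatory subunit of PI3K, was at 36.1 and 35.1 FPKM in RD-ES control and 52.1 and 42.9 FPKM in RD-ES eKD2, and at 48.7 and 52.1 FPKM in SK-N-MC control, then 38.2 and 42.1 FPKM for SK-N-MC eKD2. Both eKD2 libraries were above both controls in RD-ES and below both in SK-N-MC, as for IGF1R, with a difference between the lines of -0.72 ± 0.15 that did not pass over all genes (unadjusted p = 0.0033, adjusted p = 0.19). PIK3R3, another regulatory subunit, stood at 17.7 and 19.1 FPKM in SK-N-MC control, then 12.0 and 12.1 FPKM for SK-N-MC eKD2 (-0.57 ± 0.092, adjusted p = 0.11).

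Between the lines, 11 of 23 adaptors and RAS genes were higher and 4 lower in SK-N-MC control cells, and 7 of 31 genes of the PI3K arm were higher and 8 lower, against 31.4% higher and 26.4% lower among all tested genes. EIF4EBP1, a translation inhibitor that mTOR phosphorylates, was higher in SK-N-MC, at 655 and 694 FPKM in control against 266 and 306 FPKM (1.24 ± 0.11, adjusted p = 2.4e-04).

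All 20 genes of a list known to respond to FOXO factors, which AKT keeps out of the nucleus, were tested, and IGF1R and IRS2 belong to it. In RD-ES 1 rose and 0 fell, where 0.343% of all tested genes were called. The list was written with earlier results of these data known, so this count is a description and no test of the list. At an unadjusted p under 0.05, 4 were higher (TXNIP, GADD45A, IRS2 and IGF1R), against 12.3% of all tested genes in either direction. IRS2 and IGF1R are the same results as those given above for the axis. TXNIP, an inhibitor of thioredoxin and of glucose uptake, stood at 42.3 and 37.3 FPKM in RD-ES control and 134 and 138 FPKM in RD-ES eKD2 (1.75 ± 0.096, 3.42-fold, adjusted p = 0.0021). In SK-N-MC it stood at 25.1 and 28.6 FPKM in the controls and 28.5 and 29.7 FPKM in eKD2 (0.12 ± 0.096, adjusted p = 0.68), and the difference between the lines passed (-1.64 ± 0.14, adjusted p = 0.013). Of 17 alternatives 2 ended the RD-ES call, among them the RD-ES groups fitted alone (adjusted p = 0.11), and of 16 alternatives 2 ended the call of the difference, among them the fit without SK-N-MC eKD2 replicate 1 (adjusted p = 0.051). Between the lines in control cells 9 of the 20 were higher and 3 lower in SK-N-MC, against the same 31.4% and 26.4%. The list's median for eKD2 was 0.16 in RD-ES cells and -0.054 in SK-N-MC cells, where 0 passed and IGF1R was the only member with an unadjusted p under 0.05.

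Of 6 genes described as repressed by EWSR1::FLI1, IGFBP3 among them, 3 passed the filter, and limma called 0 of them by eKD2 in either line, with 0 at an unadjusted p under 0.05 and medians of 0.27 for RD-ES and 0.025 for SK-N-MC. TGFBR2 stood below the filter, so its change was not tested. It was at 0.936 and 1.02 FPKM in RD-ES control and 1.14 and 1.38 FPKM in RD-ES eKD2. The SK-N-MC controls held 0.277 and 0.324 FPKM, and the SK-N-MC eKD2 libraries 0.353 and 0.361 FPKM. Both eKD2 libraries were thus above both controls in each line. Groups also did not overlap, in either direction, for 39.3% (RD-ES) and 47.3% (SK-N-MC) of all tested genes. The share of genes higher in both lines was not counted, and TGFBR2 was picked after its values were seen. Control and eKD2 libraries of FOXO1 overlapped in both lines. Those of CDKN1A overlapped in RD-ES and were higher in eKD2 without overlap in SK-N-MC. DKK1 was listed at 0 in all libraries. LOX, an enzyme that crosslinks collagen, was at 0.325 to 1.10 FPKM in RD-ES and 18.7 to 19.6 FPKM in SK-N-MC. Its control and eKD2 libraries overlapped in each line.

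**Figure D5:**
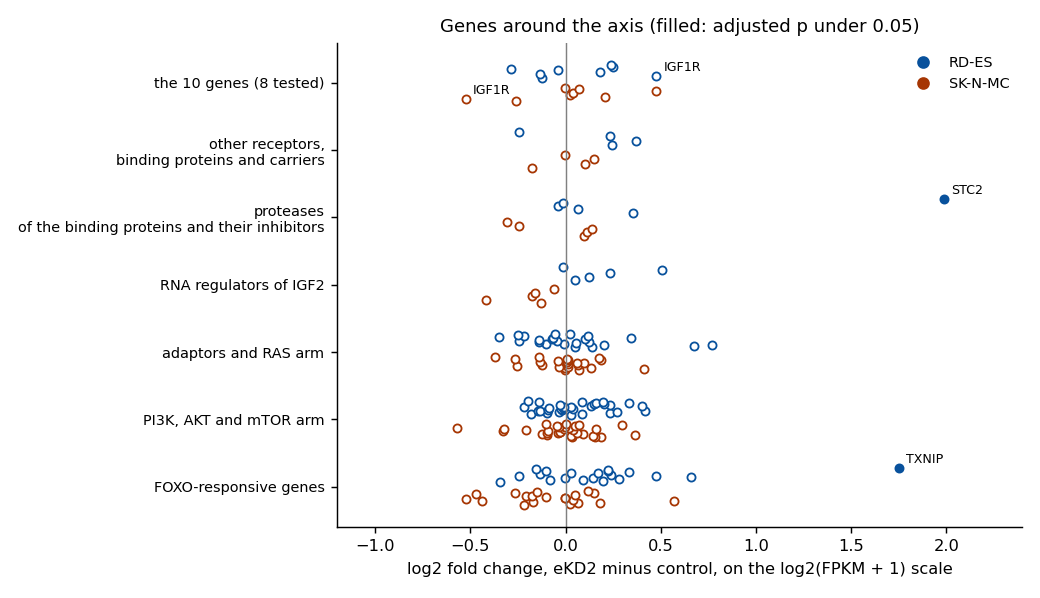
Log2 fold change of eKD2 against control for every tested gene of the axis and of 6 lists around it, 1 point per gene and line, on the log2(FPKM + 1) scale. Filled points have an adjusted p under 0.05, which in these lists are STC2 and TXNIP in RD-ES, and IGF1R is labelled on both sides of 0.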

How the data were processed

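Total RNA was extracted with miRNeasy, libraries were made with TruSeq RNA v2 and sequenced as single-end reads of 75 bases. The authors aligned the reads with STAR to GRCh37 (hg19) with GENCODE annotation and deposited FPKM values per gene and library, made with cufflinks and cuffnorm. Read counts were not used here. All 8 library columns were matched to samples by name.

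Values were compared as log2(FPKM + 1), keeping 15175 genes whose mean reached 1 FPKM, in 1 fit of the 4 groups with limma 3.58.1 (R 4.3.3; moderated statistics with an intensity trend) and Benjamini-Hochberg adjustment at 0.05. The pseudocount shrinks fold changes of low genes. The study's own test was run on read counts. The fit was tested on simulated data. Libraries of a group are described as biological duplicates, and p-values measure the spread between them. No pairing was used, since neither labels nor methods say what same-numbered libraries share. Their deviations from the group means hardly correlated (0.056 for RD-ES, 0.027 for SK-N-MC), which cannot settle whether they were paired. The depth was estimated from the steps in the FPKM of 4829 single-transcript genes, of which 85.3% to 88.8% of the low values lay within 0.1 of a whole read. Estimates carry any scaling by cuffnorm. Read numbers per gene assume that all signal lay on the canonical transcript in GENCODE, less 200 bases, and were rounded to whole reads. Gene coordinates are from GENCODE on GRCh37 and promoters from RefSeq.

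The genes of the axis and the lists around it were chosen with earlier results of these data known. All 10 genes were named. From each list up to 4 examples were given, by lowest p and by largest change among those with an unadjusted p under 0.05, and some genes were added as descriptions of level after their values were seen (IGF2R, TGFBR2, DKK1, LOX and the unexpressed family members). Alternatives were a pseudocount of 0.1 or 0.5, no filter or a filter of 5 FPKM, median scaling, quantile normalization, no trend, the compared groups alone, a replicate block, and each library left out. Some genes of the lists are not reported here by name.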

Additional observations from a re-analysis of the deposited data

Results flagged for a closer look

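IGF1R lay on opposite sides of its controls in the 2 lines, with both eKD2 libraries above both controls in RD-ES and below both in SK-N-MC. The difference of the eKD2 change between the lines, SK-N-MC minus RD-ES, was -1.001 on the log2(FPKM + 1) scale (unadjusted p = 0.010, adjusted p = 0.24, limma). IGFBP6 showed the reverse, with eKD2 libraries below the controls in RD-ES and above them in SK-N-MC, with a difference of 0.76 (unadjusted p = 0.013, adjusted p = 0.25, limma). Neither difference passed the test over all genes, whose background was 13.5% at an unadjusted p under 0.05. At that level 665 genes had a positive difference and 1390 a negative one, which became 1106 and 860 under median scaling. Taking each line alone, control and eKD2 libraries did not overlap for 39.3% (RD-ES) and 47.3% (SK-N-MC) of all tested genes. The share of all genes without overlap in opposite directions was not counted.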

How the results depend on the processing

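No gene of the axis was called by eKD2 in either line under any alternative run (limma). The number of all genes called in RD-ES (52) became 79 with no filter, 11 with a replicate block and 1 with the groups fitted alone, and 27 to 71 with a library left out. In SK-N-MC (49) it became 118, 5 and 13, and 12 to 76, and for the difference between the lines (37) it became 66 with no filter, 24 with a filter of 5 FPKM, 7 with a replicate block, and 54 to 81. The RD-ES number was 27 to 34 without any 1 SK-N-MC library, the SK-N-MC number was 12 to 22 without any 1 RD-ES library and 76 without SK-N-MC eKD2 replicate 1, and the difference was at 61 or more except without RD-ES control replicate 2. Median scaling moved the share of genes higher at an unadjusted p under 0.05 in RD-ES, from 1288 higher and 575 lower to 824 and 1175. The libraries share only a number, so the block is no paired design, and it ended the STC2 and TXNIP calls in RD-ES. Reversals were confined to changes that did not pass. By eKD2 in SK-N-MC, IRS2 turned to 0.0081 under median scaling, 0.040 under quantile normalization and, with a library left out, ranged from -0.034 to 0.027, and IGFBP4 ranged from -0.064 to 0.11, IGFBP5 from -0.011 to 0.089 and IRS1 from -0.0040 to 0.14. In RD-ES IGF1 ranged from -0.35 to 0.10 and IGFBP5 from -0.13 to 0.057. The difference between the lines ranged from -0.36 to 0.092 for IGF1 and from -0.018 to 0.17 for IGFBP5. IRS1 between the lines in eKD2 cells turned to -0.0090 under median scaling and -0.027 under quantile normalization and ranged from -0.023 to 0.12. IGFBP6 between the lines in control cells passed under quantile normalization (-0.45, adjusted p = 0.041). Causes were not tested. Depth limits IGF2 and IGFBP3.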
